A study of Rattus norvegicus with 30 samples.

Results

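Long-chain fatty acids enter liver cells, are joined to coenzyme A and are then burned or stored, and 8 genes of the entry and joining steps were followed here in rat hepatocytes exposed to dioctyl phthalate. They were Cd36, Slc27a1 and Slc27a2, which take up or carry fatty acids, and the long-chain acyl-CoA synthetases Acsl1, Acsl3, Acsl4, Acsl5 and Acsl6. Members were taken by symbol from the platform's gene table, which gave 13 of the 31099 probe sets on the array. Of these, 10 passed a filter on low signal and 3 did not, so that 7 of the 8 genes were among the 10528 tested. Acsl6 was the gene left untested.

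The cells were purchased frozen primary hepatocytes of male Sprague Dawley rats, plated on collagen under Matrigel and dosed on day 3 of culture. Dioctyl phthalate is a diester of phthalic acid used as a plasticiser. The labels do not say which isomer of the octyl chain was meant. The 6 groups were vehicle, 250 µM and 1000 µM, each harvested after 24 h and after 48 h, and all wells, the vehicle wells included, held 1% DMSO. Each group had 5 wells with 1 array each, 30 arrays in all. The labels do not say how many rats or vials the wells came from, so the errors describe the spread between wells. Signal is the authors' brightness of a probe set on a linear scale, and changes are on the log2(signal + 1) scale. A gene is said to have risen or fallen where its limma adjusted p was under 0.05 over all tested genes.

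CD36 is a membrane protein that binds fatty acids and oxidised lipids. SLC27 proteins (FATP) combine uptake with an acyl-CoA synthetase activity of their own, and SLC27A2 acts on very-long-chain and branched fatty acids in liver peroxisomes and endoplasmic reticulum. ACSL enzymes commit a fatty acid to metabolism by making its acyl-CoA. ACSL1 and ACSL5 are the main liver forms, ACSL3 sits on the endoplasmic reticulum and lipid droplets, ACSL4 prefers arachidonic acid, and ACSL6 belongs mainly to brain. In rodent liver, phthalate metabolites and fatty acids activate the receptor PPARα, which binds DNA at a direct repeat of AGGTCA with 1 base between the copies (called DR1). Several genes of fatty acid uptake and activation are textbook targets of this receptor.

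The 250 bases before the RefSeq gene start (GRCr8) were found for 8 of the 8 members and searched on both strands for the DR1 letters, AGGTCA, any base, AGGTCA. The windows of both SLC27 carriers and of the pair of synthetases with the largest rises are shown, since they set carriers and synthetases side by side. Capitals mark the closest match where it had at most 3 mismatches in the 12 letters compared.
Slc27a2, chr3:134257851-134258100, plus strand: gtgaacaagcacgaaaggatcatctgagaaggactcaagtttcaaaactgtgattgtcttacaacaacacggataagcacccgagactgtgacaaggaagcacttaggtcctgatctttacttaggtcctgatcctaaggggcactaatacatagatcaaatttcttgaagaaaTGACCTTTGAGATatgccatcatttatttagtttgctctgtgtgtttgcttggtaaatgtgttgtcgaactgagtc
Slc27a1, chr16:18312717-18312966, plus strand: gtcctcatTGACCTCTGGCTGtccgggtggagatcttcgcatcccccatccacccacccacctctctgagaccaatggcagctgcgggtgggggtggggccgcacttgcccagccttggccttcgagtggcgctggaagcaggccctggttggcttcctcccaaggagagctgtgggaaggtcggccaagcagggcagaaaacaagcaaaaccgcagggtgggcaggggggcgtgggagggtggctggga
Acsl1, chr16:52532393-52532642, minus strand: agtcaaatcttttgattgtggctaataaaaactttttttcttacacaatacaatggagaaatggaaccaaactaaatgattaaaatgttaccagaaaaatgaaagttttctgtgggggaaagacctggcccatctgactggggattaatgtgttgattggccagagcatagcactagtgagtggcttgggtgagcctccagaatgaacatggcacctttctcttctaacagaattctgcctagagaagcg
Acsl3, chr9:87563351-87563600, plus strand: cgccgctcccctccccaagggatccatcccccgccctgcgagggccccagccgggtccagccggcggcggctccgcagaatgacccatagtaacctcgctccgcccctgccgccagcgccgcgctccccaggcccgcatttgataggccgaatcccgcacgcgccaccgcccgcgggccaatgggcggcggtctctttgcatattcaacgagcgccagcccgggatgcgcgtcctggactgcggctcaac
Slc27a2 held the closest match among the members, with 2 mismatches, on the minus strand. A match within 2 mismatches was present in 3.15% of all 33465 promoter windows of this length. Slc27a1 and Acsl6 each had a best match with 3 mismatches, which 21.4% of windows reached. Cd36 had 4 mismatches, reached by 74.5% of windows, and Acsl1, Acsl3, Acsl4 and Acsl5 had 5. Slc27a1 and Slc27a2 also each held 1 exact AGGTCA within this match, a run of letters found in 14.1% of windows. The windows of Acsl1, Acsl6, Slc27a1 and Cd36 lay inside the span that the same annotation gives the gene, so that other starts exist. These are letter matches in 1 window per gene and no measurement of binding.

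All 30 arrays carried the authors' scaling, with a trimmed mean of 1501 on each. Of 10 hepatocyte markers, 9 were on the array and 9 lay above the low-signal limit. The beta-actin 3'/5' log2 ratio, which rises as RNA or its copies get shorter, was 1.72 ± 0.494 (SD, n = 5) in vehicle at 48 h against 1.14 ± 0.0840 in vehicle at 24 h (exact two-sided permutation p = 0.0397, adjusted p = 0.0794 over 10 tests). At 250 and 1000 µM at 48 h it was 1.15 ± 0.157 and 1.30 ± 0.138 (exact p = 0.0397 and 0.111 against vehicle at 48 h, adjusted p = 0.0794 and 0.181). The Gapdh ratio moved the same way, 0.219 ± 0.0545 in vehicle at 48 h against 0.147 ± 0.0216 in vehicle at 24 h, and 0.131 ± 0.0443 and 0.142 ± 0.0369 at 250 and 1000 µM at 48 h. Its exact p was 0.0397, 0.0238 and 0.0397 in these 3 comparisons with vehicle at 48 h, each with an adjusted p of 0.0794. Within vehicle at 48 h the beta-actin ratio was 2.44 in replicate 1, 1.74 in replicate 2, 1.70 in replicate 3, 1.04 in replicate 4 and 1.66 in replicate 5. Outside this group, 1 array lay above 1.5, replicate 1 of 1000 µM at 48 h (1.51), and it was kept. The 4 vehicle arrays above 1.5 enter every comparison with their group. For the member values printed below, results are given without them where that changed a call or moved a value by over 1.5 times. For the other gene lists only counts are given without them, so the sizes printed there at 48 h include them. Cell markers were not read without them. The fit without the 4 arrays keeps 1 vehicle array at 48 h, which is assumed to vary like the arrays of the other groups.

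Against vehicle, 5 of the 7 tested genes rose in each of the 4 comparisons, 1 fell and 1 did not pass the test. Acsl1, Acsl3, Acsl5, Slc27a2 and Cd36 were the risers, Acsl4 fell and Slc27a1 was not called. Acsl1 had the largest rise, 3.47- to 4.13-fold, and Acsl3 followed with 2.33- to 2.55-fold. Acsl5 and Slc27a2 rose by 1.33- to 1.46-fold, Cd36 by 1.47- to 2.18-fold, and Acsl4 was 1.31- to 1.48-fold lower. Among all tested genes, 250 µM raised 8.31% and lowered 11% at 24 h, and 1000 µM raised 8.28% and lowered 11.2%. At 48 h the shares were 15.2% raised and 26% lowered at 250 µM, and 11.5% raised and 18.3% lowered at 1000 µM. The median change of the 7 members was 0.44 to 0.55 on the log2 scale, and that of all genes -0.07 to -0.03. The 4 comparisons share vehicle arrays in pairs, so their counts are not independent of each other. In these cultures, a change in RNA per cell and a change in the number of cells of a kind cannot be told apart.

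**Figure D1:**
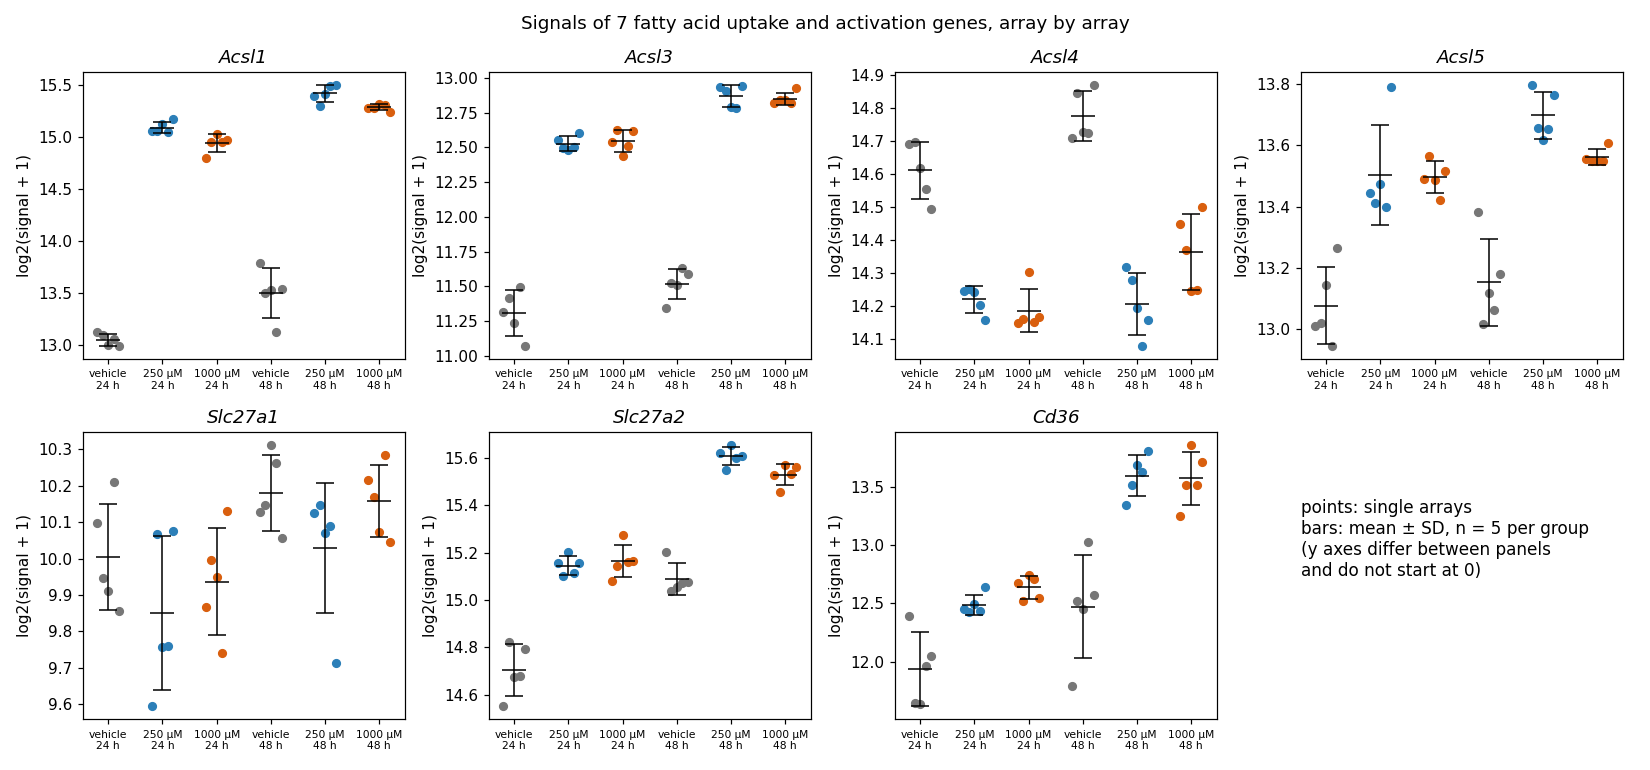
Log2(signal + 1) of the probe set standing for each of the 7 tested genes (y axes, each with its own range) in the 6 groups (x axes). Points are single arrays and bars are mean ± SD (n = 5). In the panels of Acsl1, Acsl3 and Acsl5 all treated arrays lie above all vehicle arrays.

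Slc27a2, the very-long-chain carrier and synthetase whose promoter window held the closest DR1 match, had vehicle signals at 24 h of 24026, 28957, 26125, 26247 and 28426. At 250 µM its signals were 36478, 35127, 37674, 35464 and 36469. The 1000 µM wells gave 34673, 36157, 39608, 36655 and 36727. All 10 treated arrays at 24 h were therefore above all 5 vehicle arrays, and the ranges of the doses crossed. At 48 h vehicle gave 37762, 33647, 34010, 34422 and 34495, with replicate 1 highest. The 250 µM wells gave 50424, 47935, 51559, 49644 and 49947 at that time. Those at 1000 µM gave 47291, 44920, 48611, 47351 and 48322. Again no treated array reached down to the vehicle arrays. The log2 rises were 0.44 ± 0.05 (SE) at 250 µM and 0.46 ± 0.05 at 1000 µM at 24 h, and 0.52 ± 0.05 and 0.44 ± 0.05 at 48 h. The largest adjusted p of the 4 was 4.3e-09. Slc27a2 also rose with time in vehicle by 0.38 ± 0.05, and its vehicle range at 48 h overlapped those of treated wells at 24 h.

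Slc27a1, the carrier best known from muscle and fat, was not called against vehicle in any of the 4 comparisons. Its signals ran from 926 to 1183 in vehicle at 24 h, 773 to 1077 at 250 µM and 855 to 1121 at 1000 µM. At 48 h they ran from 1064 to 1270 in vehicle, 838 to 1132 at 250 µM and 1056 to 1247 at 1000 µM. The ranges overlapped in all 4 comparisons. The log2 differences were -0.15, -0.07, -0.15 and -0.02, each ± 0.10 (SE), in the order 250 and 1000 µM at 24 h, then 250 and 1000 µM at 48 h. The 95% intervals reached no lower than -0.37 and no higher than 0.19, so changes of the size seen in Acsl3 lie outside them. With the vehicle arrays of raised beta-actin ratio left out, the 48 h differences were -0.23 and -0.10, also not called. A difference between the carriers in their response was not tested.

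Cd36, the fatty acid receptor of the plasma membrane, had the largest standard errors of the 7. Vehicle at 24 h gave signals of 5388, 3196, 3181, 3993 and 4235 on the probe set that stood for the gene. The 250 µM wells gave 5603, 5499, 5767, 5534 and 6376, and those at 1000 µM gave 6525, 5870, 6874, 6691 and 5993. All treated arrays at 24 h lay above all vehicle arrays, although vehicle replicate 1 came close to the lowest 250 µM array. The log2 rises were 0.55 ± 0.15 (SE; adjusted p = 0.0051) at 250 µM and 0.70 ± 0.15 (adjusted p = 0.00043) at 1000 µM. At 48 h the vehicle signals were 3555, 5861, 5593, 8349 and 6079. Those at 250 µM were 10399, 11730, 13155, 12667 and 14332. At 1000 µM they were 9744, 11717, 14844, 11747 and 13443. The groups did not overlap at 48 h, and the log2 rises were 1.12 ± 0.15 (adjusted p = 1.5e-07) and 1.10 ± 0.15 (adjusted p = 3.3e-07).

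The size of the Cd36 rise at 48 h moved with the vehicle arrays. Replicate 1, with the highest beta-actin ratio, had the lowest Cd36 signal of its group, and replicate 4, with the lowest ratio, had the highest. Without the 4 vehicle arrays of raised ratio, the rise was 0.57 (adjusted p = 0.053) at 250 µM and 0.54 (adjusted p = 0.074) at 1000 µM, and it no longer passed the test. With the ratio as a covariate over all arrays, the call of Cd36 at 48 h was kept at both doses. Among the members, 4 rose and 1 fell at each dose in the fit without the 4 arrays, where 6.53% of all genes rose and 6.57% fell at 250 µM, and 5.86% and 5.32% at 1000 µM. The part of RNA quality in this result was not tested beyond these fits.

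A further probe set is assigned both to Cd36 and to Cd36l1 in the platform table, and it was therefore not used for the gene. Its 24 h signals were 13745, 10588, 8421, 10427 and 10059 in vehicle, 16345 to 17509 at 250 µM and 16122 to 19705 at 1000 µM. At 48 h they were 25095, 21981, 19354, 21802 and 23295 in vehicle, 26792 to 29624 at 250 µM and 28514 to 30112 at 1000 µM. This probe set too was higher in every treated array than in any vehicle array of its time. In the fit of each probe set on its own, its log2 rises were 0.69 and 0.76 at 24 h and 0.35 and 0.40 at 48 h, each ± 0.08 (SE), and all 4 passed the test. In that fit, 15.6% of the 18625 probe sets were called at 250 µM and 15.9% at 1000 µM at 24 h, with 35.2% and 24.2% at 48 h. Its rise was thus smaller at 48 h than at 24 h, whereas that of the Cd36 probe set was larger. The change in effect from 24 to 48 h was -0.34 ± 0.11 at 250 µM for the shared probe set (adjusted p = 0.063) and 0.57 ± 0.21 for the Cd36 one (adjusted p = 0.093). At 1000 µM it was -0.36 ± 0.11 (adjusted p = 0.17) and 0.40 ± 0.21 (adjusted p = 0.49), so neither probe set passed the test for a change between times. Without the 4 vehicle arrays, the 48 h rises of both probe sets were nearer to each other: 0.57 and 0.54 for Cd36, and 0.38 (adjusted p = 0.075) and 0.43 (adjusted p = 0.042) for the shared one.

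**Figure D2:**
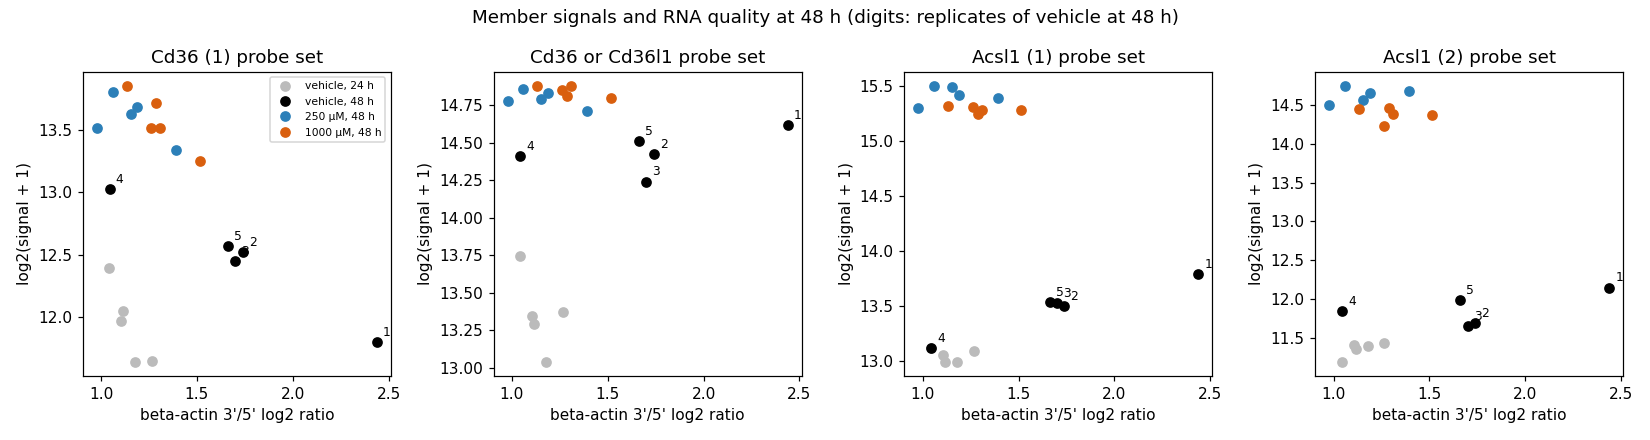
Log2(signal + 1) of the Cd36 and Acsl1 probe sets (y axes) against the beta-actin 3'/5' log2 ratio (x axes) in vehicle at 24 h and in the 3 groups at 48 h, 1 point per array. Digits number the vehicle arrays at 48 h, of which replicate 4 has the lowest ratio (1.04) and the highest Cd36 signal (8349).

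Acsl1, the main acyl-CoA synthetase of liver and fat, rose most. Its signals in vehicle at 24 h were 8887, 8702, 8148, 8472 and 8123. At 250 µM they were 34139, 34064, 35692, 34014 and 36898. At 1000 µM they were 28510, 31777, 33475, 31634 and 32096. Every treated array was over 3 times the highest vehicle array at that time, and all 1000 µM arrays lay below all 250 µM arrays. The 48 h vehicle wells gave 14165, 11559, 11805, 8888 and 11877. Signals at 250 µM were 43102, 40360, 43783, 46122 and 46476, and at 1000 µM they were 39904, 39827, 40862, 40718 and 38900. Treated and vehicle arrays were again far apart, while the doses overlapped. The log2 rises were 2.05 ± 0.07 and 1.89 ± 0.07 at 24 h and 1.93 ± 0.07 and 1.80 ± 0.07 at 48 h, for 250 and 1000 µM. The largest adjusted p was 5.2e-20.

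The other Acsl1 probe set that passed the filter moved the same way and further. Its vehicle signals were 2325 to 2765 at 24 h and 3209 to 4530 at 48 h. The treated wells gave 14636 to 19063 at 24 h and 19152 to 27569 at 48 h. The log2 rises were 2.74, 2.56, 2.77 and 2.52, each ± 0.07 (SE), in the order 250 and 1000 µM at 24 h and then at 48 h. These correspond to 5.72- to 6.81-fold. The third Acsl1 probe set lay under the low-signal limit and was not tested. Its signals were 103 to 231 in vehicle and 98.8 to 364 in treated wells.

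Acsl3, the synthetase of the endoplasmic reticulum and lipid droplets, was the next largest riser. In vehicle at 24 h its signals were 2548, 2729, 2410, 2891 and 2152. The 250 µM wells gave 6012, 5758, 5711, 5813 and 6226, and the 1000 µM wells 5941, 6320, 5542, 5822 and 6296. The lowest treated array was well above the highest vehicle array, and the doses overlapped. At 48 h vehicle gave 2603, 2940, 2909, 3167 and 3075. The 250 µM wells gave 7808, 7674, 7087, 7029 and 7879, and the 1000 µM wells 7213, 7340, 7346, 7207 and 7773. The same separation held at that time. The log2 rises were 1.22 and 1.24 at 24 h and 1.35 and 1.33 at 48 h, each ± 0.06 (SE), with a largest adjusted p of 1.6e-16.

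Acsl5, a synthetase of mitochondria and endoplasmic reticulum, rose by less, and its probe sets differed. The probe set that stood for the gene had signals of 7887 to 9834 in vehicle, 10799 to 14182 at 250 µM and 10969 to 12118 at 1000 µM at 24 h. At 48 h these were 8284 to 10682, 12582 to 14243 and 11975 to 12499. Groups did not overlap in any of the 4 comparisons. The log2 rises were 0.43 and 0.42 at 24 h and 0.55 and 0.41 at 48 h, each ± 0.07 (SE), with a largest adjusted p of 1.6e-05. The other Acsl5 probe set was not called in any of the 4. Its log2 differences were -0.16 and -0.21 at 24 h and 0.13 and 0.25 at 48 h, each ± 0.11 (SE). Where the mean of both probe sets stood for Acsl5, the 24 h rises were 0.13 (adjusted p = 0.16) and 0.11 (adjusted p = 0.28) and no longer passed, while those at 48 h, 0.34 and 0.33, were still called.

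**Figure D3:**
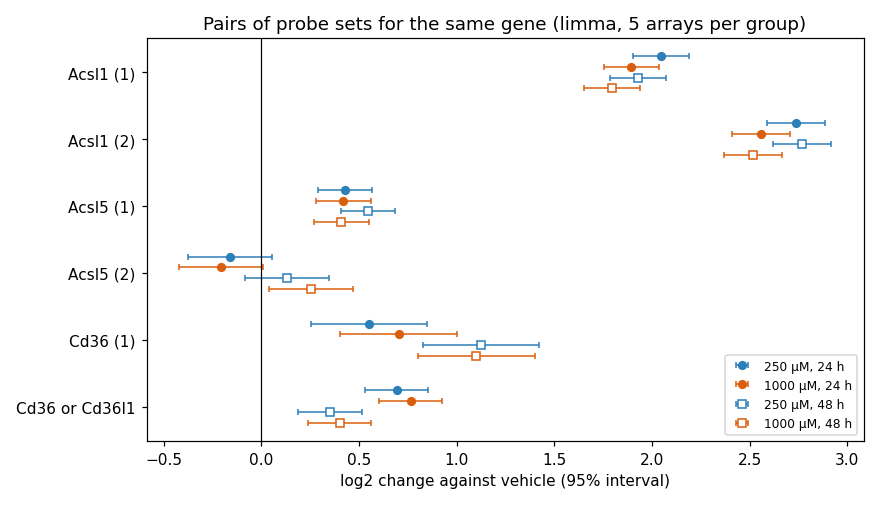
Log2 change against vehicle (x axis, with 95% intervals from limma, 5 arrays per group) for the pairs of probe sets of Acsl1, Acsl5 and Cd36 (y axis), by dose and time. Both Acsl1 probe sets lie far to the right (1.80 to 2.77), the Acsl5 pair lies on different sides of 0 at 24 h, and the Cd36 pair differs in which time has the larger rise.

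Acsl4, the synthetase that prefers arachidonic acid, was the member that fell. Signals in vehicle at 24 h were 26456, 26536, 25154, 24035 and 23091. Those at 250 µM were 19416, 19518, 19366, 18869 and 18256, and those at 1000 µM were 18157, 18315, 20196, 18195 and 18375. No treated array reached the lowest vehicle array. At 48 h vehicle wells gave 26791, 29435, 27097, 27085 and 29935. The 250 µM wells gave 20423, 19880, 18752, 17313 and 18286, and those at 1000 µM gave 22370, 21180, 19416, 19458 and 23157. The groups stayed apart at 48 h. Acsl4 fell by 0.39 and 0.43 at 24 h and by 0.57 and 0.41 at 48 h on the log2 scale, each ± 0.05 (SE), with a largest adjusted p of 1.1e-06. The summed signal of all 8 stellate cell and myofibroblast markers, 6 of them above the limit, was also lower in treated wells. The list's sum was 10331 to 15669 in vehicle and 7079 to 8392 in treated wells at 24 h, and 15590 to 16620 against 6976 to 8978 at 48 h. Vim, an intermediate filament gene, fell in all 4 comparisons and Acta2 in both at 24 h, while Col1a1 rose at 250 µM at 48 h. Des, Col3a1 and Rgs5 were not called in any of the 4. Without Vim the groups overlapped. For the other 5 above the limit, the 24 h sum was 2978 to 3929 in vehicle and 2761 to 4014 in treated wells. At 48 h it was 3041 to 3481 against 2988 to 3880. Lrat and Col1a2 lay under the limit and are left out of this sum, though not of the first. The part of such cells in the fall of Acsl4 was not tested.

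Acsl6, the synthetase best known from brain, had both of its probe sets under the limit in all groups. Their signals ran from 9.22 to 172 over the 30 arrays, against a limit of 234. No level or change can be given for it on these arrays.

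**Figure D4:**
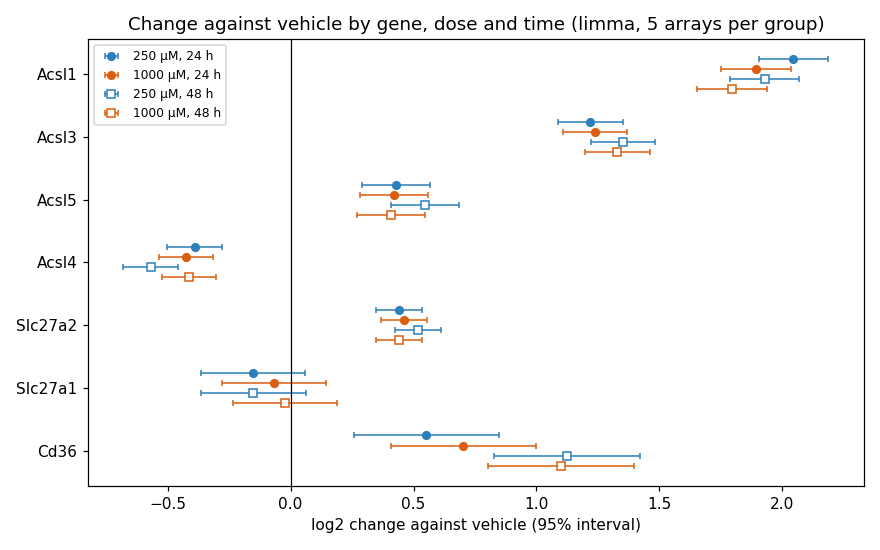
Log2 change against vehicle (x axis, with 95% intervals from limma, 5 arrays per group) of the 7 tested genes (y axis), by dose (colour) and time (filled circles 24 h, open squares 48 h). Acsl1 and Acsl3 lie furthest to the right at every dose and time (1.22 to 2.05), Acsl4 lies below 0 and Slc27a1 spans 0.

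No member was called different between the doses. Between 1000 and 250 µM, 0 of the 7 genes passed limma's test at either time. At an unadjusted p under 0.05, 1 gene stood out at each time, Acsl1 at 24 h and Acsl4 at 48 h. Of all genes, 0.019% were called between the doses at 24 h and 0.0665% at 48 h. Acsl1 at 24 h was 0.15 lower at 1000 µM on the log2 scale (95% interval of the change -0.29 to -0.01, adjusted p = 1.00), and its groups did not overlap. At 48 h its change was -0.13 (-0.27 to 0.01). Acsl4 at 48 h was 0.16 higher at 1000 µM (0.05 to 0.27, adjusted p = 0.25), with overlapping groups. Acsl5 at 48 h was -0.14 (-0.28 to 0.00), with every 1000 µM array below every 250 µM array. Cd36 had the widest intervals, -0.15 to 0.45 at 24 h and -0.32 to 0.27 at 48 h.

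Culture time also moved several members. In vehicle, 5 of 7 genes rose from 24 to 48 h and 0 fell, where 16.4% of all genes rose. These were Acsl1 (0.45 ± 0.07), Acsl3 (0.21 ± 0.06), Acsl4 (0.16 ± 0.05), Slc27a2 (0.38 ± 0.05) and Cd36 (0.53 ± 0.15). Without the 4 vehicle arrays of raised beta-actin ratio, the rises of Acsl1 (0.07, adjusted p = 0.86), Acsl3 (0.32, adjusted p = 0.17) and Acsl4 (0.11, adjusted p = 0.77) were not called. That of Cd36 was larger in this fit, 1.09 (adjusted p = 0.0015). That Acsl1 value rests on replicate 4, whose 48 h signal of 8888 lay beside the highest 24 h vehicle signal, 8887. On the other Acsl1 probe set, replicate 4 lay inside the range of the other 48 h arrays, and the rise in vehicle was 0.51 ± 0.07 with all arrays and 0.49 ± 0.10 without the 4. With only the vehicle arrays in the fit, Acsl3 (adjusted p = 0.13), Acsl4 (adjusted p = 0.079) and Cd36 (adjusted p = 0.058) were not called. Acsl3 was also lost without replicate 5 at 24 h (adjusted p = 0.065), and Acsl4 without any one of replicates 4 or 5 at 24 h or 2 or 5 at 48 h (adjusted p of 0.057 to 0.075). The Cd36 vehicle groups of 24 and 48 h overlapped, because replicate 1 at 48 h was at 3555. On the probe set shared with Cd36l1, the rise in vehicle was 1.08 ± 0.08 and the groups were apart.

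Under 250 µM, 4 of 7 genes rose with time, with 6.86% of all genes rising. They were Acsl1 (0.33 ± 0.07), Acsl3 (0.34 ± 0.06), Slc27a2 (0.46 ± 0.05) and Cd36 (1.11 ± 0.15). Under 1000 µM, 5 of 7 rose, with 9.91% of all genes: the same 4, by 0.35 ± 0.07, 0.30 ± 0.06, 0.36 ± 0.05 and 0.93 ± 0.15, and Acsl4 by 0.18 ± 0.05. Under 1000 µM, the rise of Acsl4 was lost without replicate 1 or 5 at 48 h or replicate 4 at 24 h (adjusted p of 0.050 to 0.085) and with array medians centred (adjusted p = 0.30). No member fell with time in any of these 3 comparisons. For Acsl1 and Acsl3, the mean level rose in the order vehicle at 24 h, vehicle at 48 h, treated wells at 24 h and treated wells at 48 h. The steps from 24 to 48 h are those just given, and the doses within a time were not called different.

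Whether a dose changed its effect between times was tested directly, and 0 of 7 members passed limma's test at either dose. At 250 µM, 8.36% of all genes were called in this test, and at 1000 µM 0.969%. At an unadjusted p under 0.05 there were 2 members at 250 µM, Cd36 and Acsl4, and 0 at 1000 µM. Cd36 came nearest, with a rise larger by 0.57 ± 0.21 at 48 h under 250 µM (adjusted p = 0.077). The value moved with the vehicle arrays that were kept. It passed without replicate 4 of vehicle at 48 h (0.71, adjusted p = 0.0087) or without replicate 1 of 250 µM at 48 h (0.64, adjusted p = 0.048). With those 4 vehicle arrays left out, it was 0.02 at 250 µM and -0.16 at 1000 µM, against 0.57 and 0.40 with them. Acsl1 turned in direction in the same way: its change was -0.12 and -0.10 with all arrays, 0.26 and 0.28 without the 4, and -0.21 at 250 µM without replicate 4 of vehicle at 48 h (adjusted p = 0.049). On the other Acsl1 probe set it was 0.03 and -0.04 with all arrays, and 0.05 and -0.03 without the 4. Acsl4 fell further at 48 h under 250 µM by 0.18 ± 0.08 with an adjusted p of 0.15, and did not pass.

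Other enzymes that activate fatty acids and short carboxylates moved little. Of 20 listed, 14 were tested, and 5 were called in at least 1 comparison with vehicle: Acsm5, Acsm3, Acss2, Acss3 and Slc27a5. Counts of risers and fallers were 1 and 3 at 250 µM and 2 and 1 at 1000 µM at 24 h. At 48 h they were 2 and 3, then 2 and 1. At 24 h, 8.31% of all genes rose and 11% fell at 250 µM, and 8.28% and 11.2% at 1000 µM. At 48 h, 2 risers and 1 or 3 fallers of 14 were not above the shares of all genes (15.2% up and 26% down at 250 µM, 11.5% and 18.3% at 1000 µM) by more than 1 gene. Acss2, which makes acetyl-CoA in cytosol and nucleus, fell in all 4 comparisons, by 0.44, 0.39, 0.43 and 0.28 on the log2 scale. Acsm5, a medium-chain synthetase of mitochondria, rose by 0.40, 0.46, 0.67 and 0.57. Acsm3, of the same family, rose by 0.33 at 1000 µM at 24 h and by 0.46 and 0.43 at 48 h. Slc27a5, the bile acid-CoA ligase of liver, fell at 250 µM by 0.32 at 24 h and 0.36 at 48 h, and Acss3 by 0.40 and 0.36. The list's median change was -0.10 to 0.04, beside -0.07 to -0.03 over all genes. Without the 4 vehicle arrays, 1 rise and 0 falls were left in this list at each dose at 48 h.

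Of 21 listed partners of uptake and acyl-CoA handling, 20 were tested, with 5 risers and 5 fallers at each dose at 24 h. Beside these, 8.31% of all genes rose and 11% fell at 250 µM at 24 h, and 8.28% and 11.2% at 1000 µM. At 48 h there were 9 and 5 at 250 µM, and 7 and 4 at 1000 µM. The fallers at 48 h were near the shares of all genes, 26% and 18.3%. The risers at 48 h stood beside 15.2% and 11.5% of all genes. Fabp1, the fatty acid-binding protein of liver cytosol, rose by 1.62, 1.58, 2.64 and 2.36. Fabp3, the heart form, had vehicle means under the low-signal limit and passed the filter through the treated wells, so no size is given for it. Without it the risers were 4 and 4 at 24 h and 8 and 6 at 48 h. Vldlr, a receptor for triglyceride-rich lipoproteins, rose by 0.69 and 0.56 at 24 h and by 0.45 at 1000 µM at 48 h. Cav1 and Cav2, coat proteins of the membrane pits in which CD36 is found, fell by 0.83, 0.62, 1.35 and 1.39 and by 0.46, 0.30, 0.90 and 0.65. Fabp5, the epidermal form, fell by 0.44, 0.51, 0.71 and 0.73. In the fit without the 4 arrays, the 48 h counts were 7 risers and 3 fallers at 250 µM and 6 and 3 at 1000 µM.

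The genes listed for the next steps and fates of acyl-CoA rose in most cases. Of 21 listed, 18 were tested. At 24 h the risers and fallers were 15 and 1 at 250 µM and 14 and 1 at 1000 µM. At 48 h they were 16 and 1, then 16 and 2. Of all genes, 8.31% rose and 11% fell at 250 µM at 24 h, and 8.28% and 11.2% at 1000 µM. At 48 h these shares were 15.2% and 26%, then 11.5% and 18.3%. The median change was 0.83 to 0.87 on the log2 scale, beside -0.07 to -0.03 over all genes. All 4 genes of entry into mitochondria rose in each comparison, among them Cpt1b, the muscle form of carnitine palmitoyltransferase, by 1.97 to 2.39. Both tested genes of the peroxisomal route rose: Abcd3, which carries acyl-CoA into peroxisomes, by 0.89 to 1.04, and Ehhadh, the bifunctional enzyme of peroxisomal oxidation, by 3.52 to 3.97. All 5 tested thioesterases, which split acyl-CoA again, rose. Acot2 and Acot8 rose by 1.52 to 1.73 and by 0.91 to 1.63. Acot1 passed the filter through the treated wells, and it is counted among the 5 thioesterases and among the risers at 48 h. Its vehicle mean at that time, 8.20, lay close to the low-signal limit of 7.88, so no size is given for it. At 24 h the vehicle mean of Acot1 lay under the low-signal limit, so no size is given, and without it the risers were 14 and 13. Of the 7 genes of esterification, 3 to 5 rose and 1 or 2 fell. Lpin1 had lower means in treated wells. Its mean log2 signal at 24 h was 13.62 in vehicle, 12.40 at 250 µM and 12.46 at 1000 µM. At 48 h these means were 14.12, 12.68 and 13.02. Without the 4 vehicle arrays, 15 and 14 of the 18 still rose at 250 and 1000 µM at 48 h.

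**Figure D5:**
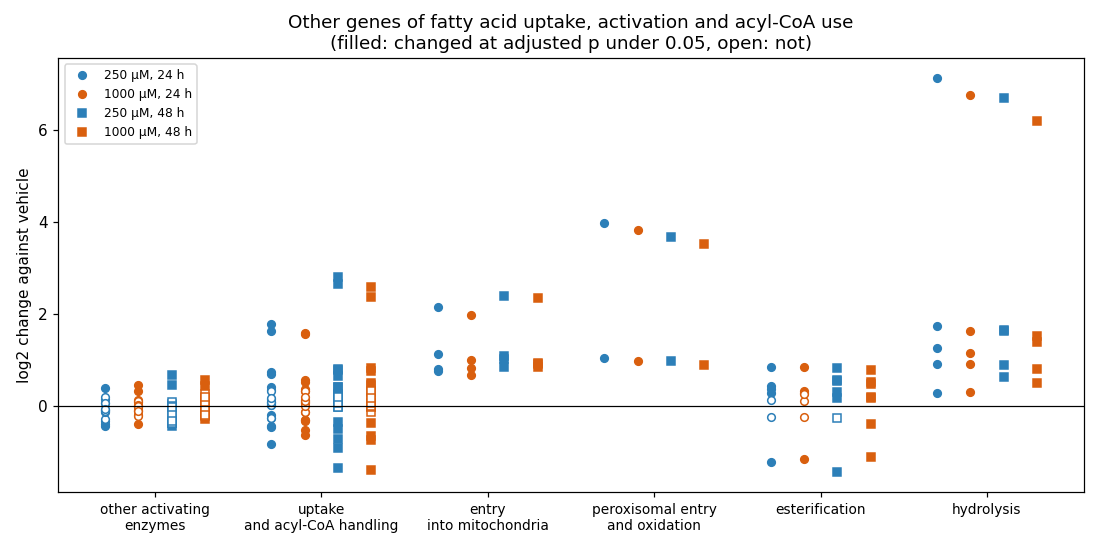
Log2 change against vehicle (y axis) of each tested gene in the lists of other activating enzymes, uptake and acyl-CoA handling, and next fates of acyl-CoA (x axis), by dose and time. Filled points passed the test: all points for entry into mitochondria, peroxisomal entry and oxidation and hydrolysis are filled and above 0, while the other lists hold points on both sides.

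Among themselves, Acsl1 and Acsl3 had the most alike patterns, with a Pearson correlation of 0.98 over the 30 arrays. Acsl1 and Acsl5 had 0.91, Slc27a2 and Cd36 0.88, and Acsl4 had -0.83 with Acsl1. Slc27a1 stayed between -0.17 and 0.38 with all other members. Over all tested genes, those with the pattern most like Acsl1 were Abcd3 (0.995), Ehhadh (0.993) and Acaa2 (0.993). Acsl3 was most like Apmap (0.984), Aig1 (0.982) and Lrrc39 (0.979), and Acsl5 most like Fbp1 (0.940), Hsd17b4 (0.937) and Hadha (0.937). Slc27a2 went most closely with Aldh1a1 (0.977), Ces2c (0.976) and Vnn1 (0.963), and Cd36 with Tmem98 (0.938), Serpinb9 (0.930) and Crp (0.919). For Acsl4 the likest genes were Cdh2 (0.948), Klf6 (0.947) and Gucy2c (0.944). These correlations describe 30 arrays that share the division into treated and vehicle wells and into times.

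Markers of other cells that could express the uptake genes were read beside these results. Of the 6 adipocyte markers, Adipoq, Lep and Plin1 lay under the limit, and Cfd, Pck1 and Fabp4 lay above it. The summed signal of all 6 was 2860 to 3735 in vehicle and 3639 to 4918 in treated wells at 24 h. At 48 h it was 1479 to 2378 against 3211 to 4877. The ranges overlapped at 24 h and were apart at 48 h. Pck1, which is also a gluconeogenic gene of hepatocytes, rose in all 4 comparisons. At 48 h Cfd rose at both doses and Fabp4 at 250 µM. The vehicle mean of Cfd at 48 h, 6.84 on the log2 scale, lay under the limit, so no size is given for it. For Cfd and Fabp4 alone, the sum was 1089 to 2075 in vehicle and 1677 to 2158 in treated wells at 24 h. At 48 h it was 354 to 706 against 773 to 1180. Of the liver endothelial markers, 2 of 6 lay above the limit, with Pecam1, Stab1, Stab2 and Vwf under it. The summed signal of all 6 was 816 to 1870 in vehicle and 1237 to 1703 in treated wells at 24 h. At 48 h it was 779 to 1446 against 762 to 1448. Among Kupffer cell and leukocyte markers, 5 of 8 lay above it, and Adgre1, Cd163 and Ptprc under it. The summed signal of all 8 at 24 h was 20930 to 27767 in vehicle and 22738 to 26955 in treated wells. At 48 h it was 20012 to 22088 in vehicle, 22666 to 24357 at 250 µM and 20287 to 22950 at 1000 µM. Every 250 µM array thus lay above every vehicle array at that time. Cd14 rose at both doses at 48 h, and Cd68 fell at 1000 µM. At 250 µM at 48 h, the mean log2 signal of Cd14 was 13.88 against 13.54 in vehicle. That of Csf1r was 8.65 against 8.43. Lyz2 (12.77 against 12.88), Cd68 (9.27 against 9.35) and Clec4f (8.38 against 8.45) had lower means. A sum without Cd14 was not made. Of 4 cholangiocyte markers, Epcam lay above the limit, and Krt7, Krt19 and Spp1 under it. The part of these cells in the Cd36 rise was not tested.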

How the data were processed

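RNA of 30 cultures was hybridised to an Affymetrix rat array, 1 array per culture. The authors deposited linear intensity signals. Per the submitters' processing notes the tool was MAS5, with no version or settings stated. Signals were converted to log2 after adding 1. The 57 control probe sets and the lowest 40% by mean log2 signal (limit 7.88, signal 234) were left out. The probe set with the highest mean stood for a gene. Probe sets with several genes (436) or with none (9780) named no gene.

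limma 3.58.1 in R 4.3.3 gave each group 1 mean and shared the spread over all 30 arrays (24 residual degrees of freedom, with a variance trend). There were 11 comparisons, called at a Benjamini-Hochberg adjusted p under 0.05 over 10528 genes. The fit was tested on simulated data. Array precision is limited by 5 arrays per group. Members and lists were chosen with earlier results of these data known. List members named are at most 6 called genes with the smallest p. The 3 likest genes per called member were taken by Pearson correlation. Alternatives were other offsets, filters, scalings, probe set rules, variance models and array sets, with the beta-actin ratio as a covariate and the 48 h vehicle arrays with a ratio above 1.5 left out. List counts, marker sums and single probe sets without certain arrays or genes, and a block by the titles' serial numbers, were added after seeing the data. Promoter sequences are from RefSeq (GRCr8).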

Additional observations from a re-analysis of the deposited data

Results flagged for a closer look

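In 60 sets of 5 arrays, each 1 probe set in 1 group, the end array was compared with the rest by Dixon's criterion, and 6 stood apart, where chance flags about 1 in 20. Replicate 5 of 1000 µM at 48 h was high for Acsl3 (12.92 on the log2 scale, the next array 12.84) and for Acsl5 (13.61, the next 13.56). Replicate 3 of 1000 µM at 24 h was high for Acsl4 (14.30, the next 14.17). Replicate 5 of 250 µM at 24 h was high for Acsl5 (13.79, the next 13.47). Replicate 5 of 250 µM at 48 h was low for Slc27a1 (9.71, the next 10.07). Replicate 1 of vehicle at 48 h, the array with the highest beta-actin ratio, was high for Slc27a2 (15.20, the next 15.07). Of these arrays, leaving out replicate 5 of 250 µM at 24 h brought the rise of Acsl5 with time under 250 µM past the test (0.27, adjusted p = 0.0033 by limma, against 0.19 and 0.054).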

How the results depend on the processing

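The 24 called changes of members against vehicle gave 516 values under the alternatives. Of these, 512 kept their call and direction, 4 lost the call and 0 reversed. The 4 were Acsl5 at 24 h with the mean of its probe sets, at both doses, and Cd36 at 48 h without the vehicle arrays of raised beta-actin ratio, at both doses. Fewer arrays enter the latter fit. The count of members called from 24 to 48 h in vehicle, 5 of 7, was 2 with only the groups compared in the fit and 2 without those vehicle arrays. Leaving out single arrays gave 3 to 5. The count called for a change of the 250 µM effect between times, 0, was 1 with quantile normalization (Acsl4, -0.29, adjusted p = 0.023), and 0 to 2 when single arrays were left out. The cause of these shifts was not tested. Acsl4's rise with time in vehicle was also lost with array medians centred (adjusted p = 0.090) and with the ratio as a covariate (adjusted p = 0.29), and that of Acsl3 with quantile normalization (adjusted p = 0.078). Sign changes were seen only among values not called in both fits (66 of 1792, at most 0.28 in size). Other scalings moved the median of all genes by at most 0.07. The labels give no replicate numbers, but the serial numbers in the titles run in 5 cycles through the 6 groups. Arrays of a cycle deviated together in part: the median correlation of their 75 pairs was 0.04 (-0.12 to 0.22), that of other pairs -0.01. A value over 0.1 was seen in 19 of the 75, and such values were not counted in the other pairs. Of the 30 arrays, 14 were likest to one of their own cycle, although most arrays compared were of other cycles. With the cycle as a replicate block, added after seeing the data, 6 members were called in each comparison with vehicle, as without it. Acsl5's rise with time under 250 µM passed limma's test in this fit (0.19, adjusted p = 0.024). More of all genes were called in each comparison with vehicle, such as 2119 against 2030 at 250 µM at 24 h. Signal near the low-signal limit leaves Acsl6 without a usable level and Fabp3 and, at 24 h, Acot1 without a usable vehicle level. The vehicle level of Acot1 at 48 h lay close to that limit.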
